A study of Rattus norvegicus with 32 samples.

Results

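The nucleus accumbens of rats given one saline injection and killed 1 h later was profiled on 4 of the 32 arrays of the series, and these 4 arrays are described here gene by gene. They were chosen by their titles, which name them as the saline controls of the 1 h time point. Every rat of the series was male and Sprague-Dawley, the labels giving a body weight but no age, and the other arrays followed a single injection of methamphetamine or saline. The accumbens was dissected, total RNA was extracted, and biotin-labelled material was hybridised to Illumina RatRef-12 bead arrays, which read one colour per array. The labels state 5 rats per group whereas 4 arrays carry this label, so it is not known that each array holds its own rat. The animals had been handled and injected, so the levels are those of saline-treated rats and not of naive ones.

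The nucleus accumbens is the ventral striatum, a hub for reward and motivation. Most of its neurons are GABAergic spiny projection neurons, one class carrying D1 dopamine receptors with substance P and dynorphin, the other D2 receptors with enkephalin and a striatal adenosine receptor. Dopamine arrives in axons whose cell bodies lie in the midbrain, so the enzymes and transporters that make and carry it are transcribed elsewhere. Cholinergic and GABAergic interneurons, astrocytes, oligodendrocytes, microglia and vessels make up the rest of the tissue.

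Of 22523 probes, 13793 carried a gene name and represented 13337 genes. Mean intensity was 164.3 to 187.8 units per array, and 41.5% to 44.5% of probes were above background. Arrays 1 and 2 lay on one slide, and arrays 3 and 4 on another. Over all probes, pairs of arrays correlated at Pearson r of 0.987 to 0.992. Array 4 stood apart: its median absolute log2 difference from the other arrays was 0.203 to 0.221, against 0.148 to 0.170 among arrays 1 to 3. The detection counts and the spread between arrays are therefore given with and without it, and shifts of array 4 against the others have no value without it. The number of arrays limits the precision of every value below.

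A probe was called detected on an array when its deposited detection p was under 0.05, that is, when it was brighter than the array's background. Each gene was given the number of arrays of its most often detected probe. On this rule 6283 named genes, 47.1% of the total, were detected on all 4 arrays. Another 5502 genes, 41.3%, were detected on none. The remaining 1552 genes, 11.6%, were detected on 1 to 3 arrays. The counts given below for gene lists stand against these shares. Without array 4, 6346 genes were detected on all of arrays 1 to 3. Just inside the limit, Akap12 had a least favourable p of 0.0497, and just outside it Cd3e had 0.0509.

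Levels are normalised log2 intensities, each gene being represented by its brightest probe. Among genes detected on all 4 arrays the median level was 7.45. Bright genes were the top 10% of these (629 genes), with levels above 10.05, and dim genes the bottom 10%, below 5.75. The undetected genes had a median level of 4.71. A probe's brightness also depends on the probe itself: in 89 genes with every probe detected on all 4 arrays, the median gap between probes of one gene was 1.38 log2 units. The Ppp1r1b probes, for example, averaged 11.98 and 6.82. Bright, dim and other ranks over genes are therefore ranks of probes. They do not order the genes by abundance.

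Several markers of the spiny projection neuron stood among the bright genes. Ppp1r1b, which encodes the dopamine-regulated phosphatase inhibitor DARPP-32, read 12.06, 11.93, 12.17 and 11.77 on arrays 1 to 4. Its highest value was on array 3 and its lowest on array 4, with an SD of 0.17. Adora2a, the adenosine receptor of D2-type neurons, read 11.83, 11.52, 11.79 and 11.67. Penk, the enkephalin precursor, read 11.90, 11.46, 11.96 and 11.18. Arrays 1 and 3 were the high pair for both of these genes. Tac1, the substance P precursor, read 11.37, 11.24, 11.41 and 10.94, and array 4 was again lowest.

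The dopamine receptors themselves lay in the middle of the range. Drd1, which couples to cyclic AMP production, read 9.03, 9.04, 9.18 and 8.62. Drd2, which opposes it, read 7.84, 8.11, 7.92 and 7.59. Array 4 gave the lowest value of both, and the other 3 arrays lay less than 0.5 log2 units from each other. Drd3, the dopamine receptor best known from the ventral striatum, was below background on every array, at 4.80, 4.79, 4.86 and 4.91. Drd4 and Drd5 were also undetected. A probe below background sets only a bound and does not show that the transcript is absent.

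Of 23 measured projection neuron genes, 22 were detected on all 4 arrays and Drd3 on none, where 47.1% of all named genes were detected on all 4. The bright ones numbered 9, against 10% of detected genes overall. They included Gad1, which makes GABA, at 12.46 ± 0.07 (SD, n = 4), Rgs9, a GTPase accelerator that curbs dopamine receptor signalling, at 11.53 ± 0.22, and Pde10a, the striatal cyclic nucleotide phosphodiesterase, at 11.04 ± 0.12. Rasd2 (Rhes) averaged 10.67 and the sodium channel subunit Scn4b 10.37. The middle range held Pdyn, the dynorphin precursor, at 8.44 ± 0.30, Adcy5, the main striatal adenylyl cyclase, at 9.39 ± 0.26, and Isl1, a transcription factor of D1-type neurons, at 6.30 ± 0.15. Bcl11b, Foxp2 and Slc32a1 had no named probe.

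**Figure D1:**
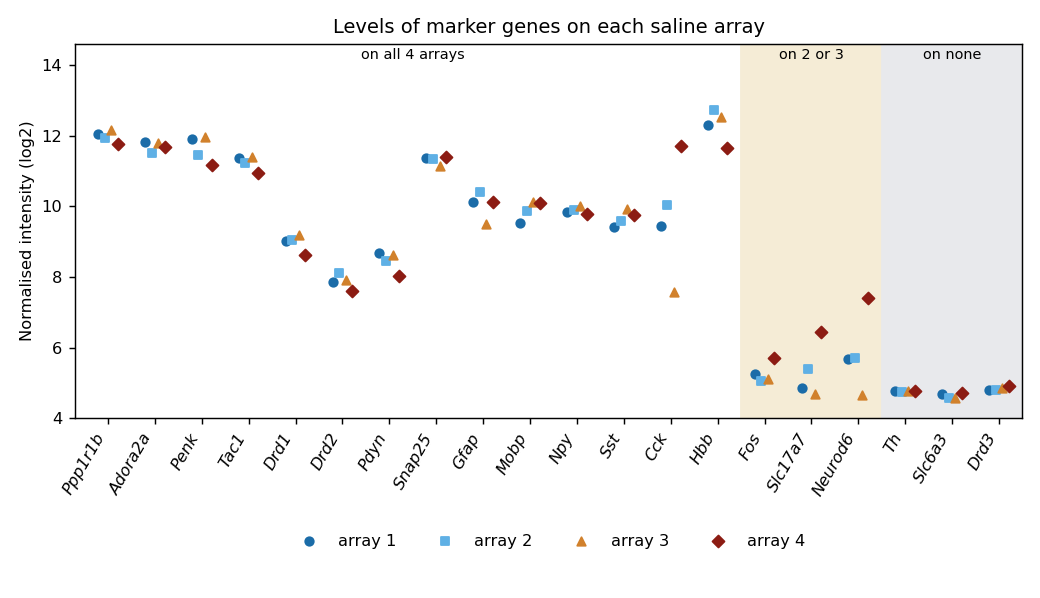
Normalised log2 intensity (y axis) of 20 marker genes (x axis) on each saline array, 1 point per array. Unshaded genes were detected on all 4 arrays, those on the tan ground on 2 or 3, and those on the grey ground on none; Cck spans the widest range, from 7.58 on array 3 to 11.72 on array 4.

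Genes that supply dopamine and other monoamines were below background more often than not. Of 14 measured genes for monoamine synthesis and transport, 8 were detected on no array (57.1%, against 41.3% of all named genes). They were Th, the rate-limiting enzyme of dopamine synthesis, Ddc, Slc6a3 (the dopamine transporter), Slc18a2 (the vesicular monoamine transporter), Dbh, Tph2, Slc6a4 and Gch1. Th read 4.76, 4.74, 4.76 and 4.77, and Slc6a3 read 4.68, 4.56, 4.57 and 4.71. The noradrenaline transporter gene Slc6a2 passed on 3 arrays at a mean of 5.22. The 5 genes detected on all 4 arrays act in breakdown or cofactor supply: Maoa, Maob, Pts, Spr and Qdpr. Maob, which degrades amines in glia, read 8.37 ± 0.14 (SD, n = 4).

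Among receptors for monoamines, acetylcholine, opioids, cannabinoids, adenosine and histamine, 18 of 46 were detected on all 4 arrays, 11 on some and 17 on none, shares for all and none of 39.1% and 37.0%, against 47.1% and 41.3% of all named genes. Only Adora2a was bright. Chrm4, the muscarinic M4 receptor, read 7.40 ± 0.26, Cnr1, the CB1 cannabinoid receptor, 6.82 ± 0.14, and Hrh3, a histamine receptor, 7.66 ± 0.27 (SD, n = 4 each). Oprm1, the mu opioid receptor, passed on 3 arrays and Oprd1, the delta receptor, on 2. Chrna5, a nicotinic subunit, passed on array 4 alone, at 6.18 against 4.97 to 5.15 elsewhere. Oprk1 and Adra2a had no named probe.

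Of 42 amino acid receptor subunits, 23 were detected on all 4 arrays and 17 on none. These shares of 54.8% and 40.5% lay near those of all named genes. Gria2, the AMPA receptor subunit that limits calcium entry, and Gabrb1, a GABA-A beta subunit, were bright, at 11.51 ± 0.17 and 10.22 ± 0.19. Grin1, the obligatory NMDA receptor subunit, read 9.85, 9.98, 10.03 and 10.15. All 3 measured rho subunits (Gabrr1, Gabrr2 and Gabrr3), known mainly from retina, were undetected, as was Gabra6, known from cerebellar granule cells. Glra2, a glycine receptor subunit, read 8.60 ± 0.18, whereas Glra1 and Glra3 were undetected. Gria1 and Gabra2 had no named probe.

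Neuropeptide and granin precursors were detected on all 4 arrays for 25 of 43 genes (58.1%, against 47.1% of all named genes). Penk, Tac1, Chgb, Scg3 and Pcsk1n were bright. Cartpt, the precursor of CART peptide, read 10.07, 10.11, 9.94 and 9.49, and Npy, a marker of low-threshold interneurons, read 9.84, 9.90, 10.01 and 9.79. The arrays lay close together for Npy, and array 4 was lowest for both. On no array were 9 precursors detected (20.9%, against 41.3% of all named genes), among them the hypothalamic transmitters Oxt and Hcrt. Galanin (Gal), Agrp, Vgf and Grp were detected on all 4 arrays but dim.

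Second messenger enzymes and G protein subunits were detected on all 4 arrays for 45 of 56 genes (80.4%, against 47.1% of all named genes). Of these 45, 15 were bright, against 10% of all detected genes. Ppp3ca, the catalytic subunit of calcineurin, averaged 13.23 ± 0.16, Prkacb, a catalytic subunit of protein kinase A, 12.32 ± 0.10, and Gnao1, the abundant brain Go subunit, 12.09 ± 0.18 (SD, n = 4 each). Gng7, the G protein gamma subunit that partners Gnal, read 10.37 ± 0.09. Gnas, the widely expressed relative of Gnal, was detected on 2 arrays only, and both of its probes were near background. Adcy1, Adcy6 and Adcy7 were undetected. Histone acetyltransferases, deacetylases and sirtuins were detected on all 4 arrays for 18 of 20 measured genes. Hdac11 and Sirt5 were bright, and Hdac6 was undetected.

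The region is known from the labels, and markers of broad cell types are given here. Pan-neuronal and synaptic vesicle genes were detected on all 4 arrays for 25 of 27, against 47.1% of all named genes. Of these 25, 12 were bright, against 10% of all detected genes, while Syn1, Sv2a, Nefh and Rbfox3 were dim. Snap25, a core protein of vesicle fusion, read 11.37, 11.35, 11.14 and 11.41, the arrays lying less than 0.5 log2 units apart. Sncb (beta-synuclein) was undetected, and Stx1a passed on array 4 alone. All 19 astrocyte genes were detected on all 4 arrays and 11 were bright, among them Ndrg2 at 13.12 ± 0.04, Cst3 at 13.25 ± 0.16 and Apoe at 12.84 ± 0.16. Gfap, the astrocyte filament protein, read 10.13, 10.41, 9.51 and 10.12. Array 3 was the lowest for Gfap, by over 0.5 log2 units.

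Oligodendrocyte genes were detected on all 4 arrays for 22 of 24. Mobp, a myelin protein, read 9.53, 9.87, 10.12 and 10.09, array 1 being lowest. That order was shared by the list, since 15 of its 22 detected genes were lowest on array 1 and none was highest there. Over all detected genes, 24% were lowest on array 1. Microglial genes were detected on all 4 arrays for 12 of 19 (63.2%) and on none for 5 (26.3%). Ctss (cathepsin S), at 10.77 ± 0.27, was the only bright gene of that list, and Cx3cr1 and Itgam were dim. Endothelial and mural genes were detected on all 4 arrays for 11 of 20 (55%), including Cldn5 (claudin-5) at 10.11 ± 0.16, and 7 were detected on none (35%). The endothelial and mural shares lay near the 47.1% and 41.3% of all named genes. The microglial list and the endothelial and mural list too were mostly lowest on array 1, for 9 of 12 and 8 of 11 genes. In dissected tissue, fewer cells of a type, less RNA per cell and a technical difference of the array cannot be told apart.

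Interneuron markers were detected on all 4 arrays for 11 of 16 (68.8%, against 47.1% of all named genes). Sst read 9.41, 9.59, 9.93 and 9.74. The cholinergic transporters Slc18a3 and Slc5a7 read 6.40, 6.86, 7.08 and 6.03, and 5.58, 5.78, 6.09 and 5.18, respectively. Lhx6, a transcription factor of parvalbumin and somatostatin interneurons, read 5.75, 6.42, 6.77 and 5.43. All 3 genes were highest on array 3 and lowest on array 4. Over the 11 interneuron genes detected on all 4 arrays, 5 were highest on array 3 and 7 lowest on array 4. The counts over all 6282 detected genes were 1309 and 1926. Cck was the reverse, lowest on array 3 and highest on array 4. Nos1 was undetected and Chat had no named probe.

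Markers of cells outside the accumbens parenchyma gave a mixed picture. Ttr, the hallmark transcript of choroid plexus, was below background on every array, together with Folr1, Kl, Clic6 and 6 further genes of ependyma, choroid plexus and meninges. Of 23 genes of that list, 8 were detected on all 4 arrays (34.8%, against 47.1% of all named genes), including Ptgds at 11.34 ± 0.28. Of 15 blood genes, 3 were detected on all 4 arrays, all haemoglobins and all bright: Hba-a1, Hbb and Hbb-b1. Hbb read 12.31, 12.74, 12.53 and 11.65, and all 3 genes were highest on array 2 and lowest on array 4. The erythroid genes Alas2 and Slc4a1 and the neutrophil genes S100a8 and S100a9 were undetected. Haemoglobin genes have near-identical copies that a probe may not separate, and Hba-a2 was undetected where Hba-a1 was bright.

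**Figure D2:**
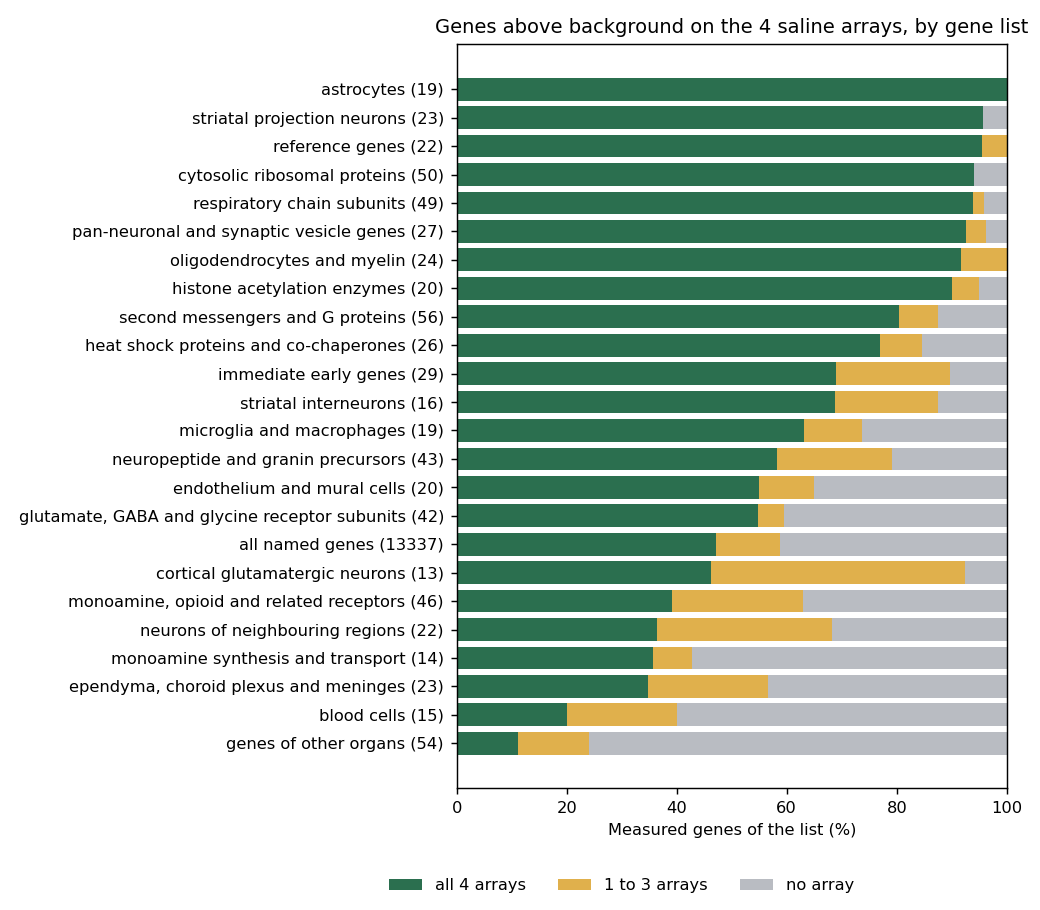
Share of measured genes (x axis, %) detected on all 4 arrays, on 1 to 3 or on none, for 23 gene lists and for all named genes (y axis, number of measured genes in brackets). Astrocyte genes reach 100%, all named genes 47.1%, and genes restricted to other organs 11.1%.

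Genes restricted to other organs served as a negative group. Of 54 such genes of liver, muscle, kidney, testis, gut, pancreas, skin and other tissues, 41 were undetected, including Ins1, Ins2, Prm1, Krt14 and Csn2, and 6 were detected on all 4 arrays. Those 6 were Alb, Acta1, Myh7, Tnnc2, Slc22a6 and Cpa1. Myh7, a slow muscle and cardiac myosin, read 8.70, 8.21, 8.65 and 8.74, well inside the detected range on every array. Acta1, skeletal muscle actin, read 7.75 ± 0.19 (SD, n = 4). Actin genes are close relatives, and cross-hybridisation of that probe was not tested.

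Gene families taken by symbol, chosen after the values were seen, separated further. Of 1149 olfactory receptor genes, 1047 were undetected and 24 were detected on all 4 arrays (2.09%). Vomeronasal receptors gave 112 of 121 undetected, keratins 36 of 42, interleukins 47 of 61 and Hox genes 18 of 21. Over all named genes 41.3% were undetected. Chromosome 3 had the lowest share of genes detected on all 4 arrays, 38.8%, and chromosome 19 the highest, 60.1%. The share of all named genes was 47.1%. Of the olfactory receptor genes, 283 lay on chromosome 3, among its 1156 named genes, and 2 on chromosome 19. Their part in the difference between chromosomes was not tested. Potassium channel genes (Kcn symbols) were detected on all 4 arrays for 34 of 81 and solute carriers for 121 of 294, near the 47.1% of all named genes.

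Detected and undetected genes also differed in the sequence before their start. RefSeq windows of 300 bases on the GRCr8 build, 250 before to 50 after the start, were matched by gene ID for 10976 of the 13337 genes. The median number of CpG dinucleotides was 23 in bright genes, 22 in the middle group, 18 in dim genes, 15 in genes detected on some arrays and 6 in undetected genes. At least 10 CpG were found in 92.5% of bright and 37.9% of undetected windows, against 63.7% of those of all named genes and 44.1% of all 27457 RefSeq windows. The motif TATAAA, searched on both strands, was present in 9.79% of bright, 6.07% of middle and 18.7% of undetected windows, against 12.1% for all named genes and 14.3% of all windows. The cyclic AMP response element TGACGTCA, which reads the same on both strands, was present in 4.99% of bright and 1.55% of undetected windows, against 2.54% for all named genes and 1.91% of all. CCAAT, searched on both strands, varied little, from 34.8% in dim to 38.6% in middle genes and 37.8% of all windows. The median share of G and C bases was 61.7% in bright and 52% in undetected windows. TGACGTCA holds a CpG, and TATAAA holds no G or C. Olfactory receptors made up 1047 of the 5502 undetected genes. The part of base composition and of this family in the CpG and motif shares was not tested. Such a match is a description of letters and not evidence that a factor binds there.

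The 250 bases before the start of 4 genes show the contrast, with CpG dinucleotides in capitals. Rgs9 (chr10:94770388-94770637, minus strand) and Rplp0 (chr12:46718391-46718640, minus strand) were bright, with 21 and 18 CpG. Csn2, the milk protein beta-casein (chr14:20601574-20601823, plus strand), was undetected, with 2. Gfap (chr10:88361662-88361911, minus strand) is shown as an exception, detected on all 4 arrays with 1. These counts are for the 250 bases shown. In the 300-base windows used for the medians they were 24 for Rgs9, 22 for Rplp0, 3 for Csn2 and 6 for Gfap. Coordinates are RefSeq's on GRCr8, and each line runs from 5′ to 3′.
Rgs9: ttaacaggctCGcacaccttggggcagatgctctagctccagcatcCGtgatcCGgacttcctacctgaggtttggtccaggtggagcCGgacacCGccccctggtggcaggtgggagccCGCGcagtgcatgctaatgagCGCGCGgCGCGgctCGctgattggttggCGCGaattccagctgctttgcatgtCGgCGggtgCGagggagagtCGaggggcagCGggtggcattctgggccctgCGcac
Rplp0: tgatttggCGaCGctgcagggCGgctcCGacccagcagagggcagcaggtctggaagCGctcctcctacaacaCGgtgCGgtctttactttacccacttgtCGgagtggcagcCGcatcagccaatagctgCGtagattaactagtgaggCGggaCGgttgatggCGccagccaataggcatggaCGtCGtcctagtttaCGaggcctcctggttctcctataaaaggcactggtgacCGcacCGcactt
Csn2: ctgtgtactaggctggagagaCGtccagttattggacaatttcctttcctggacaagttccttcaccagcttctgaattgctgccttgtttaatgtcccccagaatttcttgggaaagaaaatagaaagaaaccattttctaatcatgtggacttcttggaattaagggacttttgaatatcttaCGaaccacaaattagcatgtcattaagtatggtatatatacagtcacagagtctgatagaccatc
Gfap: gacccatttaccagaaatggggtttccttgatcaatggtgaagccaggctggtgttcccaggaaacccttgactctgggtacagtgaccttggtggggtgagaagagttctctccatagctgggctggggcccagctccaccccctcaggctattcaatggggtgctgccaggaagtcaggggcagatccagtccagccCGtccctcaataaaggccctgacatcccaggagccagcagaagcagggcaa

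The 20 genes with the brightest probes included Eef1a1, Rpl9, Rpl23a, Rplp0 and Rpl3, which serve protein synthesis, and the cytoskeletal genes Tuba1b, Tubb2a and Actb. They also included Calm2 (calmodulin), Ppp3ca and Pcp4, a calmodulin-binding peptide. Fth1 (ferritin heavy chain), Itm2c, Cst3, Rtn1, Ndrg2, Ppia, Cox6a1 and Snrpn completed the set with Sv2b, a synaptic vesicle glycoprotein. The Sv2b probe was the brightest on every array, with deposited intensities of 20956, 18190.5, 24734.4 and 20939.1. Quantile normalisation gives the top probe of each array one value, so its SD of 0 at 14.37 is a product of the method. The deposited intensities of Sv2b, not scaled between arrays, were highest on array 3 and lowest on array 2.

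Cytosolic ribosomal protein genes were detected on all 4 arrays for 47 of 50, and 34 of these were bright, against 10% of all detected genes. Respiratory chain subunits were detected on all 4 arrays for 46 of 49, and 37 of these were bright, against the same 10%. Rpl11, Rpl12, Rps19, Ndufs4 and Atp5mc3, which belong to these complexes, were undetected. Genes often used as expression references were detected on all 4 arrays for 21 of 22 and had a median SD of 0.13, against 0.17 for all detected genes. Of these 21, 14 were bright, and all bright genes had a median SD of 0.148. Within the list Pkm and Aldoa had SDs of 0.07 each. Eef1a1 had the lowest SD of the list at 0.02, where most arrays shared the same normalised value, and Gusb had the highest at 0.32. Outside it Atp5f1b had an SD of 0.03 and Rpl13 of 0.05. The 5 genes with the dimmest probes among those detected on all 4 arrays were Hemk1 at 5.26, Ly6g6c, Mdh1b, Eprs1 and Mul1.

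Immediate early genes, which neurons transcribe within minutes of stimulation, were neither bright nor silent. Of 29, 20 were detected on all 4 arrays (69.0%, against 47.1% of all named genes), none of them bright. Egr1 read 9.52, 9.44, 9.57 and 9.68, and Sgk1, a stress- and glucocorticoid-responsive kinase, averaged 9.82 ± 0.16 (SD, n = 4). Fos passed on 2 arrays, at 5.25, 5.05, 5.10 and 5.71. Egr3, Nr4a1 and Gem were undetected. The list shifted on array 4, where 13 of the 20 genes had their highest value, against 31.8% of all detected genes. The median difference from the 4-array mean was 0.28 log2 units on array 4, against -0.001 over all detected genes. Nptx2, a secreted synaptic pentraxin, read 5.75, 5.92, 5.60 and 7.01, Ptgs2 (cyclooxygenase 2) 6.78, 6.47, 6.73 and 7.55, and Dusp1, a MAP kinase phosphatase, 8.48, 8.70, 8.77 and 9.40. Array 4 was the highest for all 3, and arrays 1 to 3 differed by less than 0.5 log2 units for each.

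**Figure D3:**
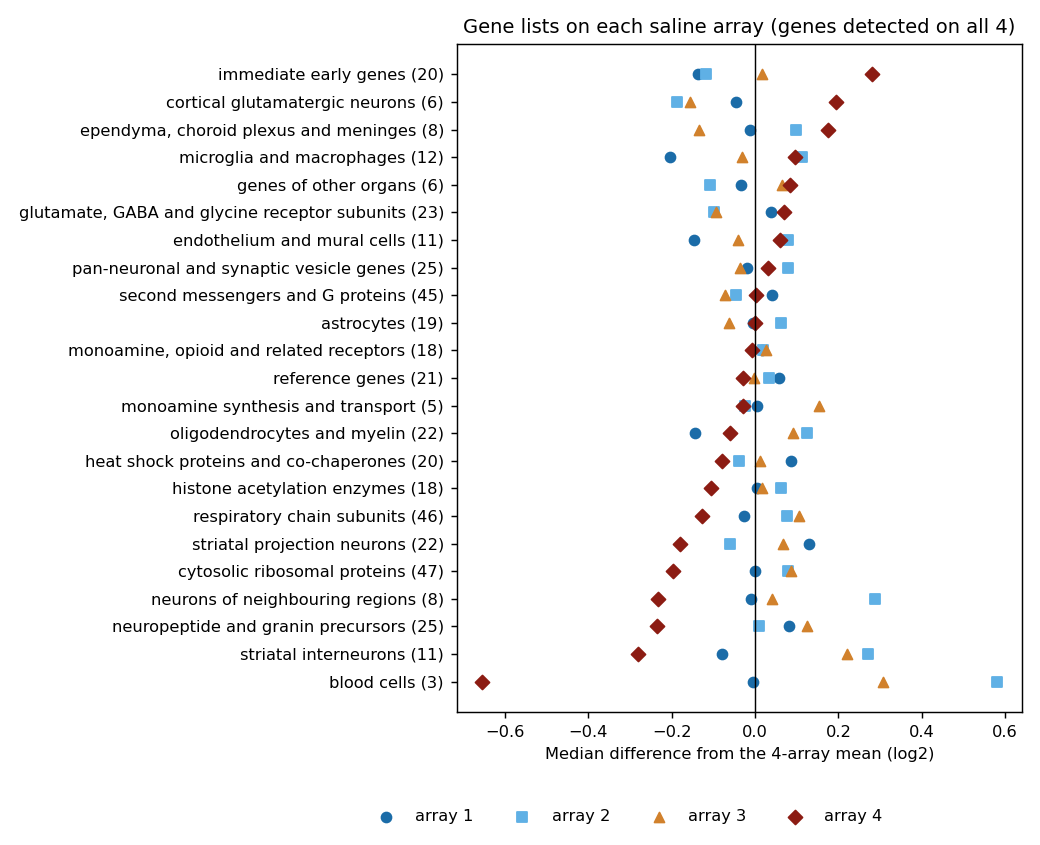
Median difference from each gene's 4-array mean (x axis, log2 units) on each saline array, for the genes of 23 lists detected on all 4 arrays (y axis, number of genes in brackets). Array 4 lies farthest right for immediate early genes (0.28) and farthest left for blood genes (-0.65).

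Other lists shifted on array 4 as well. Projection neuron genes had a median difference of -0.18 there, with 13 of 22 genes at their lowest, against 30.7% of all detected genes. Neuropeptide precursors, which share Penk, Tac1 and Pdyn with the projection neuron list, had -0.23. Interneuron markers, which share Sst, Npy, Cck and others with the neuropeptide precursors, had -0.28, cytosolic ribosomal genes -0.20 and respiratory chain subunits -0.13. Of the cortical neuron list, 6 genes were detected on all 4 arrays and had a median difference of 0.19 on array 4. Lamp5, Lmo4 and Bhlhe22 were highest there, Emx2 and Etv1 were highest on array 3 and Fezf2 on array 1, and Etv1 was lowest on array 4. Of its 13 measured genes, 1 was below background on all 4 arrays and 5 on all of arrays 1 to 3. Slc17a7 (the cortical vesicular glutamate transporter) read 4.86, 5.39, 4.69 and 6.45, and Neurod6, a transcription factor of cortical pyramidal neurons, read 5.68, 5.71, 4.65 and 7.39. Both were highest on array 4, and values below background, such as those of both genes on array 3, have no order. The part of these cortical values in the array 4 shifts of the other lists was not tested.

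Most genes differed little between arrays. The median SD over genes detected on all 4 arrays was 0.171 log2 units, and the median ratio of the highest to the lowest array was 1.30-fold. A ratio of at least 2-fold was seen in 157 genes and of at least 4-fold in 14. Spread fell with level, from a median SD of 0.211 between levels of 5.75 and 6.16 to 0.148 in bright genes, and was 0.168 below 5.75. An SD over 0.5 was reached by 90 genes (1.43%). Array 4 was the farthest from the mean in 46 of these, high in 28 and low in 18. Without array 4 the median SD was 0.137 and 66 genes exceeded 0.5, of which 43 were among the 90. Without array 1 the count was 149, and without array 3 it was 145.

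**Figure D4:**
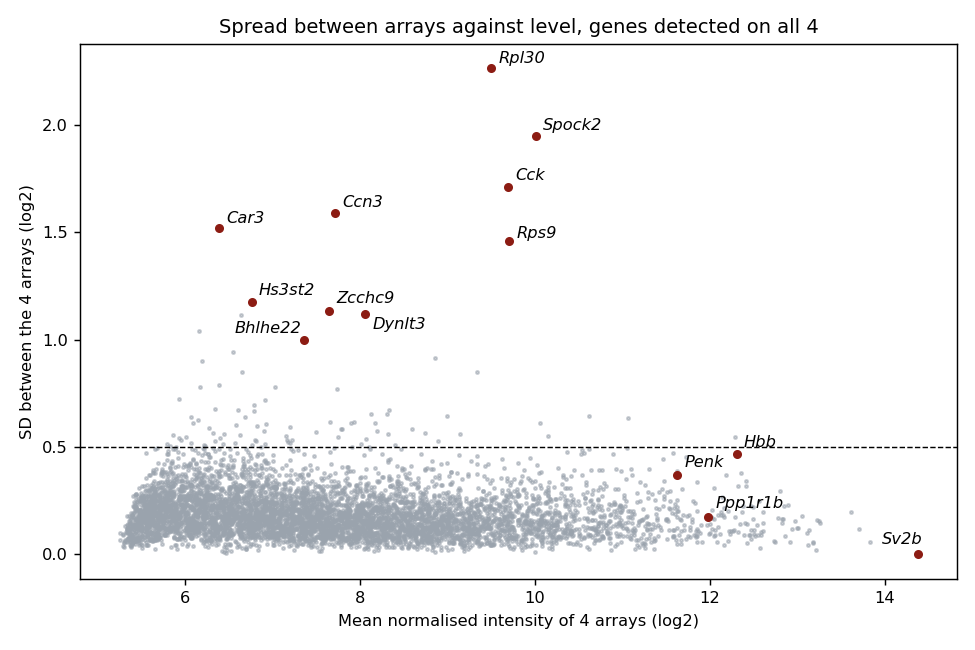
SD between the 4 saline arrays (y axis, log2 units) against mean normalised log2 intensity (x axis), 1 point per gene detected on all 4 arrays, with named genes in red. The dashed line marks an SD of 0.5, exceeded by 90 genes, and Rpl30 is the most variable with an SD of 2.26.

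One gene dominated the spread among peptides. Cck, the cholecystokinin precursor, read 9.44, 10.04, 7.58 and 11.72, a 17.7-fold range with an SD of 1.71. Arrays 4 and 3 were the extremes, and without array 4 the SD was still 1.29. Ccn3, a secreted matricellular protein, followed the same order of extremes at 8.24, 7.0, 5.98 and 9.67, a 12.9-fold range. Bhlhe22, a transcription factor of cortical projection neurons, read 6.96, 7.13, 6.54 and 8.81. Hs3st2, Mfsd4a, Prss12, Ccn2 and Mas1 were likewise highest on array 4 and lowest on array 3.

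That pattern, highest on array 4 and lowest on array 3, held for 561 detected genes (8.93%), for 20 of the 90 with an SD over 0.5 (22.2%) and for 8 of the 20 most variable. Beyond those 8, the 20 genes with this pattern and an SD over 0.5 included Nptx2, Lingo1 (a Nogo receptor partner) and Olfm1. Basp1 (a growth cone protein), Slit1 and Sstr1 (a somatostatin receptor) were also among these 20, though not among the 20 most variable. Olfm1 read 10.74, 11.10, 10.48 and 11.94, and Lingo1 read 8.98, 8.66, 8.44 and 9.91. Of the 6 cortical list genes detected on all 4 arrays, 3 were highest on array 4, Bhlhe22 of the pattern among them. Emx2 and Etv1 were highest on array 3 and Fezf2 on array 1. Slc17a7 and Neurod6, not detected on every array, were highest on array 4. The part of cortical genes in the pattern was not tested.

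Other variable genes had different extremes. Rpl30 read 11.08, 11.09, 6.28 and 9.55, the widest range of all at 28.0-fold, and arrays 3 and 4 both lay below arrays 1 and 2. Spock2, a brain proteoglycan, read 10.93, 7.09, 11.05 and 10.996, and only array 2 was low. Rps9 was low on the same array, at 10.49, 7.53, 10.62 and 10.17. The second Rps9 probe read 8.81, 4.88, 9.19 and 8.40, low on array 2 as well, where it fell below background. Other ribosomal genes did not share these dips: the list had a median difference of 0.08 on array 2 and 0.09 on array 3.

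Dynlt3, a dynein light chain, read 7.45, 7.62, 9.73 and 7.44, high on array 3 alone. Car3, carbonic anhydrase 3, read 5.31, 6.04, 5.57 and 8.62, high on array 4 alone. Bnip3, a hypoxia-responsive mitochondrial protein, read 8.10, 9.87, 9.92 and 9.48, low on array 1. Prkcd, a protein kinase C isoform, was lowest on array 4, at 7.84, 7.26, 7.07 and 5.97. Nmb (neuromedin B) was highest on array 3, at 6.61, 6.02, 7.86 and 6.10. Of the 20 most variable genes, 12 kept an SD over 0.5 without array 4.

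**Figure D5:**
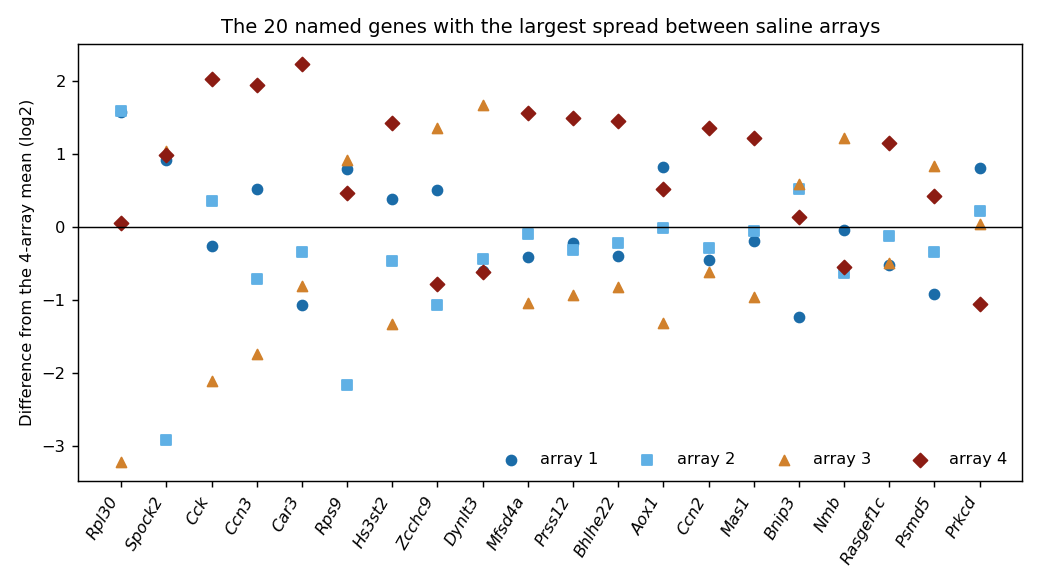
Difference from the 4-array mean (y axis, log2 units) for the 20 named genes with the largest SD between saline arrays (x axis), 1 point per array. Array 4 is the highest point and array 3 the lowest for 8 of them, while Rpl30 is lowest on array 3 and Spock2 and Rps9 are low on array 2.

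The slides were the one batch that the labels give, and the test between them made few calls. Arrays 3 and 4 were compared with arrays 1 and 2 over 9992 probes detected on at least 2 arrays. With limma and Benjamini-Hochberg adjustment, 3 probes (0.03%) passed, each at an adjusted p of 0.0298. Ephx2, soluble epoxide hydrolase, read 5.26 and 5.12 on slide 1 and 7.19 and 7.17 on slide 2, a difference of 1.99 ± 0.20 (SE), with array 2 below background. RT1-A1, a class I histocompatibility gene with close relatives that a probe may not separate, read 6.60 and 7.01 on slide 2 and was below background on both arrays of slide 1. It was at least 2.92-fold brighter on slide 2, taken against the lowest signal above background on each slide 1 array, and it passed the detection filter through slide 2 alone. The third probe had no gene name and was lower on slide 2. With 2 arrays a slide, a p that misses the threshold does not show that the slides did not differ. The median 95% interval of a probe's slide difference was ±0.44 log2 units.

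All 3 probes were near or below background on one slide. Over the 8530 probes detected on all 4 arrays, limma made 0 calls at an adjusted p under 0.05, and 274 had an unadjusted p under 0.05. With single arrays left out, 5 calls were made without array 1, 1 without array 2, 12 without array 3 and 4 without array 4. The named genes next in order did not pass. Ubqlnl and Stc2 were below background on both arrays of slide 2, with an adjusted limma p of 0.337. Alb read 5.45, 5.56, 6.48 and 6.36 (adjusted limma p of 0.713), while its other probe was undetected. Each slide held 2 arrays, and slide and animal cannot be told apart in this comparison.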

How the data were processed

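Total RNA of the nucleus accumbens from 4 saline arrays was used, grouped by title. BeadStudio produced the deposited intensities, per the submitters' processing notes; its version is not given in the sources used here. The deposited intensities held values below 0 (28.1% to 29.2% of probes per array) and so were already background-subtracted, and they were not scaled between arrays. The authors deposited a detection p-value beside each intensity. The pair of tables that hold these arrays gave identical values (largest difference 0). Here the 4 arrays alone were normalised with neqc in limma 3.58.1 (R 4.3.3), a routine that estimates background through the detection p-values, then applies a 16-unit offset, the log2 transform and quantile normalisation. The offset compresses differences of dim genes. Tables and plots were made with pandas 2.3.3 and matplotlib 3.10.9 in Python 3.11.15.

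Gene names came from the platform annotation, with 8730 probes unnamed; RefSeq held the Entrez IDs of 13752 named probes and changed 0 names. The brightest probe stood for a gene, and of 425 genes with more than 1 probe, 132 had one probe detected on all 4 arrays and another on none. Slides were compared with limma's linear model and moderated statistic, two-sided and with an intensity trend, at an adjusted p threshold of 0.05. The test was checked on simulated data. Its p-values measure only the spread between these arrays, which may be technical. The rule for named genes took the cell markers, the 20 brightest, the 20 most variable, the 5 dimmest detected, the 10 smallest p between slides, and members of 23 gene lists. Other genes, the shared pattern of arrays 3 and 4 and the families by symbol were chosen after the values were seen. The arrays, markers and lists were chosen with earlier results of these data known. For promoters, the most upstream listed start of a gene was used. The files name no genome build. Alternatives were a stricter detection p, intensity above 0, the brightest probe alone, no further background correction, median centring, unscaled values, other filters, no intensity trend and each array left out. Methamphetamine arrays and the later run were not used.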

Additional observations from a re-analysis of the deposited data

Results flagged for a closer look

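Among 179 values screened, including 154 gene levels and 23 list medians, 11 gene levels had one array farther from the other 3 than Dixon's 95% critical value allows, and no list median did. Chance gives about 1 in 20, a rate that does not apply to the screened genes that were picked for a large spread or a slide difference. The gap as a share of the range was 0.969 for Spock2, 0.856 for Rps9 and 0.833 for Myh7, each low on array 2. It was 0.921 for Dynlt3 and 0.881 for Gusb, both high on array 3. Array 4 was the far one for Ccn2 (0.833, high), Stmn3 (0.877, high), Dlk1 (0.86, low), Hspe1 (0.901, low) and Eef1a1 (1, low). Array 1 was low for Bsg (0.969). The ranges differed widely in size. Spock2 spanned 3.96 log2 units and Eef1a1 0.04, where 3 arrays shared one rank and thus one normalised value. Hspe1, a mitochondrial co-chaperone, read 8.99, 8.89, 8.93 and 8.00, and Dlk1 read 6.36, 6.47, 6.55 and 5.22. Bsg (basigin) read 7.94 on array 1 and 8.33, 8.34 and 8.33 on the others.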

How the results depend on the processing

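The detected count was 5180 and the undetected count 6951 at a detection p under 0.01, within 1.5 times of the main counts. With intensity above 0 in place of the detection p, 1716 genes counted as undetected instead of 5502. Leaving out each array gave 6342 to 6493 genes detected on every remaining array and 5582 to 5769 on none. The median SD was 0.121 to 0.226 over all settings. The count of genes with an SD over 0.5, 90 here, was 222 with no further background correction, 320 with unscaled values and 145 over all named genes, and 66 to 149 with single arrays left out, the highest count being without array 1 and 145 without array 3. Of the 90, 90 stayed over 0.5 with no further background correction, 89 unscaled and 43 without array 4. The slide comparison gave 0 calls among probes detected on all 4 arrays and 1 to 12 with single arrays left out (5 without array 1, 1 without array 2, 12 without array 3), the lone array of a slide then being assumed to vary like the other pair; the cause was not tested. The other settings gave 2 to 4 calls. Of 154 named gene levels, 12 moved by more than their SD with no further background correction and 12 unscaled, and at most 4 in any other setting. No paired analysis was possible because only 1 group was used. With 4 arrays on 2 slides, array, slide and animal cannot be separated, and probes near background give only a bound.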

Other observations

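Heat shock proteins and co-chaperones were detected on all 4 arrays for 20 of 26 genes, and 5 were bright: Hspd1, the mitochondrial chaperonin, at 11.36 ± 0.06 (SD, n = 4), Hspa5 (BiP) at 10.98 ± 0.16, Dnaja1, Hsp90b1 and Hspa9. Hspa1b, the inducible heat shock protein, was undetected, as were Hsph1, Ahsa1 and both probes of Hsp90ab1, a gene known as abundant in most cells. Neurons of septum, pallidum, basal forebrain and hypothalamus were represented by 22 measured genes, of which 8 were detected on all 4 arrays and 7 on none. These shares were 36.4% and 31.8%, against 47.1% and 41.3% of all named genes. Slc17a6, the subcortical vesicular glutamate transporter, read 8.00, 8.31, 7.80 and 8.00. Nkx2-1, Sim1 and Gbx2 were undetected. Zic2 read 7.27, 6.74, 6.38 and 6.26. Of the 8 genes of this list detected on all 4 arrays, 6 were lowest on array 4, against 30.7% of all detected genes.

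Proteasome genes (Psm symbols) were detected on all 4 arrays for 36 of 43 and Nduf genes for 34 of 37, whereas cytochromes P450 were detected on all 4 for 14 of 66. These families were chosen after the values were seen, and the share over all named genes was 47.1%.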
